A study of Mus musculus with 8 samples.

Results

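Neurexins, neuroligins and IgLON proteins are cell adhesion molecules of neuronal surfaces, and 9 of their genes are described here in the olfactory mucosa of mice that lost Lhx2 in mature olfactory sensory neurons (OSNs). The 9 genes, of 19938 genes with a named transcript cluster, are Nrxn2, Nrxn3, Nlgn1, Nlgn2, Nlgn3, Ntm, Opcml, Lsamp and Negr1. They were chosen by gene symbol, with the knockout and control values of these arrays already known, so their changes are given as a description and the p-values beside them are not independent evidence. Each gene had exactly 1 transcript cluster, the set of array probes over all exons of a gene. All 9 could be measured and none was filtered away.

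The knockout group was 4 OmpCre:Lhx2(fl/fl) mice, in which Cre from the Omp locus can recombine both floxed Lhx2 alleles. The control group was 4 littermates, of which 3 were OmpCre:Lhx2(fl/+) and 1, control replicate 1, was Lhx2(fl/+) without Cre. All 8 mice carried at least 1 floxed allele, were on a mixed 129 x C57BL/6J background and were 26 days old, and each gave RNA of whole olfactory mucosa to 1 Affymetrix Mouse Gene 1.0 ST array. OmpCre is a targeted insertion into Omp, so it lowers the dose of Omp itself in mice that carry it, and it does not recombine in every mature OSN. Values are log2 expression values, and differences are knockout minus control on that scale.

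The targeted gene, Lhx2, was at 12.34 ± 0.04 (SD, n = 4) in controls and 12.09 ± 0.09 (SD, n = 4) in knockouts. It fell by 0.25 ± 0.06 (adjusted p = 0.0383), and this call was lost without any 1 mouse other than knockout replicate 3 (adjusted p = 0.0566 to 0.130). It was also lost with arrays centred on their median (-0.19, adjusted p = 0.117) and over all clusters of the table (adjusted p = 0.0788). Omp, a gene that defines mature OSNs, was at 13.22 to 13.78 in controls and 12.37 to 12.88 in knockouts. Of 16 mature OSN markers, 14 were called lower and 0 higher in limma, and their mean over the list ran from 12.50 to 12.52 in controls and from 11.90 to 11.99 in knockouts. Of 12 immature OSN markers, 1 (Tubb3) was called higher (8.33%) and 0 lower, where 2.10% of all tested clusters were called higher and 6.29% lower. At an unadjusted limma p under 0.05, 3 of the 12 were higher and 1 lower. For 3 of the 12 every knockout lay above every control, where 6.42% of all tested clusters did so. No marker was called among 8 for basal cells and progenitors, 6 for sustentacular cells, 8 for ensheathing and Schwann cells, 8 for lamina propria fibroblasts, 4 for endothelium and 4 for macrophages. At an unadjusted p under 0.05, 3 of these 38 markers were higher (1 of basal cells, 2 of ensheathing and Schwann cells) and 0 lower. In bulk tissue, fewer cells of a type and less RNA per cell cannot be told apart. The part of the mature OSN decrease in the changes below was not tested.

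Neurexins are presynaptic receptors that bind neuroligins on the facing membrane, and the pair helps to align and specify synapses. OSN axons form their synapses in the olfactory bulb, outside the dissected tissue. The arrays measured mRNA of the whole mucosa, and which of its cells held the mRNAs of these proteins was not tested. IgLON proteins are small adhesion molecules with immunoglobulin domains, held to the membrane by a lipid anchor. They bind each other in pairs and influence neurite outgrowth and cell contact.

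More of the 9 genes were higher than lower in knockouts, as were more of all tested clusters. The change was below 0 for 1 of the 9 and for 7816 of the 23410 clusters. The adjusted p of limma passed the threshold of 0.05 for 4 of the 9 genes (Nrxn3, Ntm, Negr1 and Opcml), all higher, where 8.39% of all 23410 tested clusters were called, 2.10% higher and 6.29% lower. For 5 of the 9 genes, these 4 and Nlgn3, every knockout lay above every control, where 6.42% of all tested clusters did so. None of the 9 lay lower without overlap (7.83% of all tested clusters), and none was lower at an unadjusted limma p under 0.05. The median change of the 9 genes was 0.20, against 0.05 over all tested clusters. As the same contrast was in view when the genes were chosen, nothing is read from these shares.

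**Figure D1:**
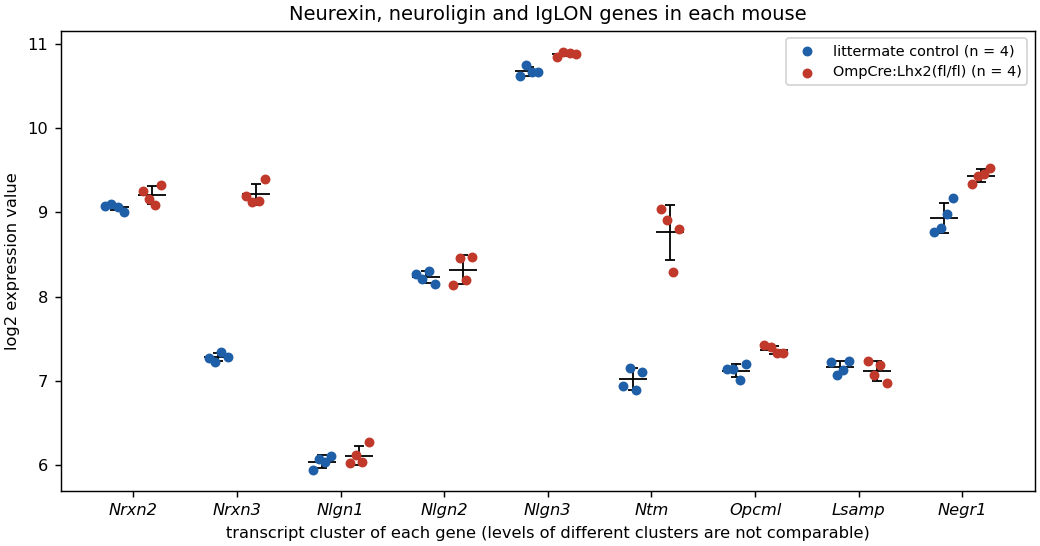
Log2 expression value (y axis) of the 9 genes (x axis) in 4 littermate controls (blue) and 4 OmpCre:Lhx2(fl/fl) knockouts (red), 1 point per mouse with the group mean and SD. Nrxn3 lies at 7.23 to 7.35 in controls and 9.12 to 9.40 in knockouts, and Ntm at 6.90 to 7.16 and 8.29 to 9.04, while the groups overlap for Nrxn2, Nlgn1, Nlgn2 and Lsamp.

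The promoter sequences of the 4 genes called higher are shown because these genes moved the same way, and Lhx2 belongs to the LIM homeodomain proteins, which bind sites with a TAAT core. Each window holds 250 bases before and 50 bases after a RefSeq start site on GRCm38.p6, written 5′ to 3′ on the strand of the gene. Capitals mark a homeodomain core, either TAATTA or the form TAATTG that differs from it in the last letter, or the core CCCNNGGG of sites for the O/E (Ebf) factors of OSNs. Each was searched on both strands. For Nrxn3 and Ntm the window with a match is printed of 3 and 2 windows, respectively, and Opcml and Negr1 had 1 window each.
Nrxn3: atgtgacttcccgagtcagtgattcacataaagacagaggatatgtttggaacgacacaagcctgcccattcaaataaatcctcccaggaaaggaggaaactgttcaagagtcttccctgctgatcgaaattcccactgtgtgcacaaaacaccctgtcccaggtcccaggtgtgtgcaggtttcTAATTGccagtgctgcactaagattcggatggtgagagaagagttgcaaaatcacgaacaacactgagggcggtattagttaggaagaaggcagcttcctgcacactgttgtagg
Ntm: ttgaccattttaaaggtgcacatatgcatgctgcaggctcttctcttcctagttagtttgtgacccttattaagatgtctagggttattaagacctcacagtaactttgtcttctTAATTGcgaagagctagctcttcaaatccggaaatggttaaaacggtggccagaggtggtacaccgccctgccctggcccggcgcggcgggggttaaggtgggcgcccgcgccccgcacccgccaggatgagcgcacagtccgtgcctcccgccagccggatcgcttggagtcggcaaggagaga
Opcml: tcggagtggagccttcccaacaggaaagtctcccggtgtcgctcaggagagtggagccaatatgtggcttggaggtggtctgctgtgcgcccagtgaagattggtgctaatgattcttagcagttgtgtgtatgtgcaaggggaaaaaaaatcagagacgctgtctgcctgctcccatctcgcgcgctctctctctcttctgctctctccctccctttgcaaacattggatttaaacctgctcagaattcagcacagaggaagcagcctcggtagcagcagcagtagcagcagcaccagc
Negr1: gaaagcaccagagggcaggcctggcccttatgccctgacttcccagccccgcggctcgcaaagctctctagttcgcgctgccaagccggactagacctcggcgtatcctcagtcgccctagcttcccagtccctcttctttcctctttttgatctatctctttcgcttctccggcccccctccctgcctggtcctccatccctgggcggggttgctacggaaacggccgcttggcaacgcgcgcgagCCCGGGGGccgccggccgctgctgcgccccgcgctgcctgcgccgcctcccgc
The Nrxn3 window lies at chr12:88953140-88953439 on the plus strand and holds TAATTG with its first base at position -65 from the start site. The Ntm window lies at chr9:29412636-29412935 on the minus strand, with TAATTG at -135. The Opcml window (chr9:27791049-27791348, plus strand) holds none of the 3 motifs, and the Negr1 window (chr3:156561544-156561843, plus strand) holds CCCNNGGG at -3. RefSeq windows were found for 7 of the 9 genes, 12 windows in all. Over all genes there were 32851 windows of 300 bases. The form TAATTG occurred in 2 of the 12 windows and in 2628 of all windows. The form TAATTA occurred in none of the 12 and in 5.29% of all windows, while the core CCCNNGGG occurred in 1 and in 13.7%. Such matches describe letters and not binding, and the array value of a gene does not say which start site was used. The printed windows differed in composition, from 47.7% G and C in Nrxn3 to 68.0% in Negr1, which also held 29 CpG pairs against 6 in Nrxn3.

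Among the neurexins, Nrxn3 had the largest change of all 9 genes. Its value was 7.27, 7.23, 7.35 and 7.28 in the controls (replicates 1 to 4 in this order, here and below) and 9.20, 9.12, 9.14 and 9.40 in the knockouts. The groups were separated by far more than the spread within either, and the highest knockout was replicate 4. The Nrxn3 controls lay a little above the lower quartiles of the arrays (6.88 to 7.04). Nrxn3 mRNA (transcript cluster 10397575) rose by 1.93 ± 0.07 (SE), or 3.81-fold, with a 95% confidence interval of 1.77 to 2.09 and an adjusted p of 7.25e-07. Only 5 of the 23410 tested clusters had a larger increase. Within the 3 groups of mice whose title numbers start with 5, 7 and 9, here called title series and treated as a possible batch, the differences were 1.91, 1.79 and 2.11. The control without Cre, at 7.27, lay among the controls with Cre.

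Nrxn2 (transcript cluster 10460987), the other neurexin measured, had values of 9.07, 9.10, 9.07 and 9.01 in controls and 9.25, 9.16, 9.08 and 9.33 in knockouts. The groups overlapped, as knockout replicate 3 lay below control replicate 2. Its difference was 0.14 ± 0.07 with an interval of -0.01 to 0.29 (adjusted p = 0.301), and it was 0.12, 0.01 and 0.32 within title series 5, 7 and 9. An increase of Nrxn2 of the size seen for Nrxn3 lies far outside that interval. Neurexin genes give long and short transcripts from separate promoters, and a cluster that averages all exons does not tell these forms apart.

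Neuroligins are the postsynaptic partners of neurexins. Nlgn1 is known from excitatory synapses, Nlgn2 from inhibitory ones and Nlgn3 from both kinds. None of the 3 genes was called. Nlgn3 (transcript cluster 10601152) came closest, at 10.62, 10.75, 10.66 and 10.66 in controls and 10.85, 10.90, 10.89 and 10.88 in knockouts. All 4 knockouts lay above all 4 controls, and the knockouts were nearly equal. The difference was 0.20 ± 0.06, or 1.15-fold (interval 0.08 to 0.33, adjusted p = 0.0505), and it was even across title series 5, 7 and 9 (0.19, 0.22 and 0.22). It passed the threshold in 8 of the other settings in which no mouse was left out, with all clusters of the table as the exception. Among these 8 was centring on the mature OSN markers (adjusted p = 1.31e-05), which called 21772 clusters higher. In the rest the adjusted p ran from 0.0114 (the methods' t-test) to 0.0420 (title series as a block). Nlgn3 also passed without control replicate 2 (0.23, adjusted p = 0.0465).

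The other neuroligins did not separate the groups. Nlgn1 (transcript cluster 10497505) was at 5.95, 6.08, 6.04 and 6.11 in controls and 6.02, 6.13, 6.03 and 6.28 in knockouts, a difference of 0.07 ± 0.07 (interval -0.09 to 0.24, adjusted p = 0.680). Nlgn2 (transcript cluster 10387659) was at 8.27, 8.21, 8.31 and 8.15 in controls and 8.14, 8.46, 8.20 and 8.47 in knockouts, a difference of 0.08 ± 0.09 (interval -0.11 to 0.28, adjusted p = 0.687). The Nlgn2 knockouts fell into a low and a high pair, and the difference within title series changed sign, from 0.06 in series 5 to -0.11 in series 7 and 0.32 in series 9. The Nlgn1 cluster lay below the lower quartile of every array (6.88 to 7.04).

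**Figure D2:**
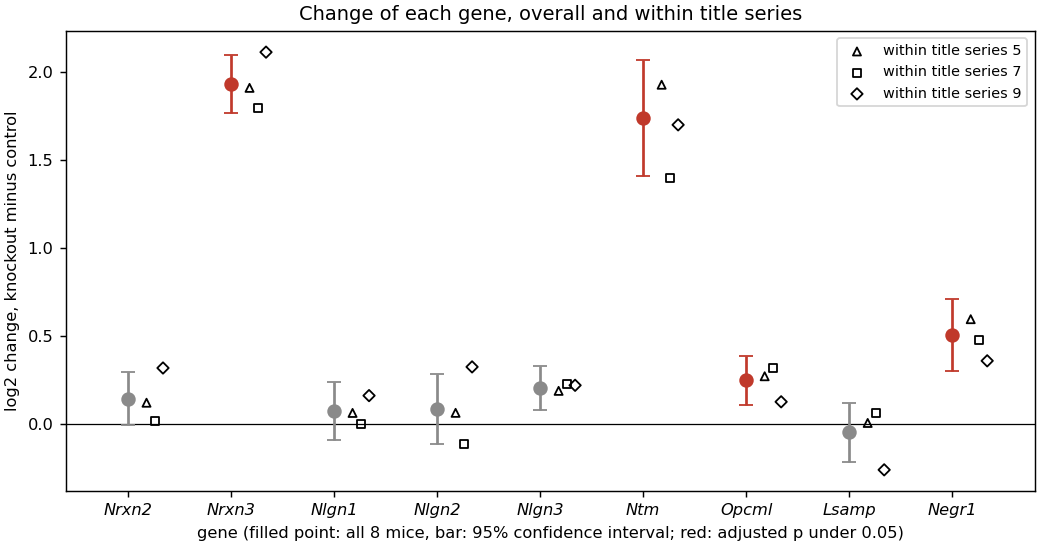
Log2 change (knockout minus control, y axis) of the 9 genes (x axis), as the estimate over all 8 mice with its 95% confidence interval (filled points, red where the adjusted p was under 0.05) and within title series 5, 7 and 9 (open triangles, squares and diamonds). Nrxn3 (1.93) and Ntm (1.74) stand above Negr1 (0.51) and Opcml (0.25), and the intervals of Nrxn2, Nlgn1, Nlgn2 and Lsamp include 0.

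Among the IgLON genes, Ntm, Negr1 and Opcml rose and Lsamp was not called. Ntm encodes neurotrimin, which acts on neurite outgrowth. It was at 6.94, 7.16, 6.90 and 7.10 in controls and 9.04, 8.92, 8.29 and 8.80 in knockouts. All knockouts lay over 1 log2 unit above all controls, with knockout replicate 3 the lowest of its group. The controls lay near the lower quartiles of the arrays (6.88 to 7.04). Ntm mRNA (transcript cluster 10591978) rose by 1.74 ± 0.15, or 3.33-fold (interval 1.41 to 2.07, adjusted p = 2.88e-05), the increase of rank 9 among all tested clusters. The knockouts varied more (SD 0.33) than the controls (SD 0.13), and the change was 1.93, 1.40 and 1.70 within title series 5, 7 and 9. Without knockout replicate 3 it was 1.89.

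Negr1 encodes an IgLON protein also called kilon. Its values of 8.77, 8.81, 8.98 and 9.17 in controls and 9.34, 9.43, 9.45 and 9.52 in knockouts did not overlap, although control replicate 4 came near the lowest knockout and the controls varied more (SD 0.18) than the knockouts (SD 0.08). Negr1 mRNA (transcript cluster 10497051) rose by 0.51 ± 0.09, or 1.42-fold (interval 0.30 to 0.71, adjusted p = 0.00522). The control without Cre was the lowest of the controls, and without it the change was 0.45 (adjusted p = 0.0183). Within title series 5, 7 and 9 the change was 0.60, 0.47 and 0.36, and the controls of series 5 lay lowest.

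Opcml encodes an opioid-binding cell adhesion molecule of the same family. It was at 7.15, 7.14, 7.01 and 7.20 in controls and 7.42, 7.40, 7.33 and 7.33 in knockouts, so the groups were close but did not overlap. The controls lay a little above the lower quartile of their arrays (6.88 to 7.04 over all arrays). Opcml mRNA (transcript cluster 10584024) rose by 0.25 ± 0.06, or 1.19-fold (interval 0.11 to 0.39, adjusted p = 0.0356), with 0.27, 0.32 and 0.13 within title series 5, 7 and 9. This Opcml call was lost without any 1 mouse other than control replicate 4 (changes of 0.21 to 0.26, adjusted p = 0.0589 to 0.106), and the direction was kept in each of these fits. Lsamp, the limbic system associated membrane protein, was at 7.22, 7.07, 7.12 and 7.23 in controls and 7.24, 7.07, 7.19 and 6.97 in knockouts. These Lsamp values also lay near the lower quartiles of the arrays. The groups overlapped almost completely, with a difference of -0.05 ± 0.08 (transcript cluster 10435752, interval -0.22 to 0.12, adjusted p = 0.802) whose sign turned when arrays were centred on their median (0.01) or on the mature OSN markers (0.52) and without knockout replicate 4 (0.00122).

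Iglon5, which has the same domain structure and was not among the 9 genes, rose as well. It was at 7.80, 7.97, 7.73 and 7.80 in controls and 8.37, 8.16, 8.03 and 8.20 in knockouts. All 4 knockouts lay above all 4 controls. The change was 0.36 ± 0.08, or 1.29-fold (adjusted p = 0.0232), and 0.38, 0.30 and 0.40 within title series 5, 7 and 9. Without control replicate 1, 3 or 4 or knockout replicate 1, 2 or 4 it was no longer called (0.30 to 0.37, adjusted p = 0.0544 to 0.0738), nor over all clusters of the table (adjusted p = 0.0575) or by the methods' t-test after adjustment (0.0672).

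The size of all these changes depends on what the arrays are scaled to. Centring on the array median moved the median change of all tested clusters from 0.05 to 0.11, and centring on the mature OSN markers moved it to 0.62. Relative to the median of all clusters, the changes were 1.88 for Nrxn3, 1.69 for Ntm, 0.46 for Negr1, 0.20 for Opcml, 0.16 for Nlgn3, 0.09 for Nrxn2, 0.04 for Nlgn2, 0.02 for Nlgn1 and -0.10 for Lsamp. Every change is larger by the same amount when expressed per mature OSN marker signal, and all 9 genes were then called higher together with 21772 clusters, a setting that is therefore no sign of an increase of these genes. Over the other alternatives the change was 1.87 to 1.99 for Nrxn3, 1.65 to 1.89 for Ntm and 0.45 to 0.60 for Negr1, and these 3 genes were called in every alternative in which they were tested. The filter that kept clusters above the array median in at least 4 arrays retained Nrxn3 only through its knockouts. That Nrxn3 call therefore adds no support.

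**Figure D3:**
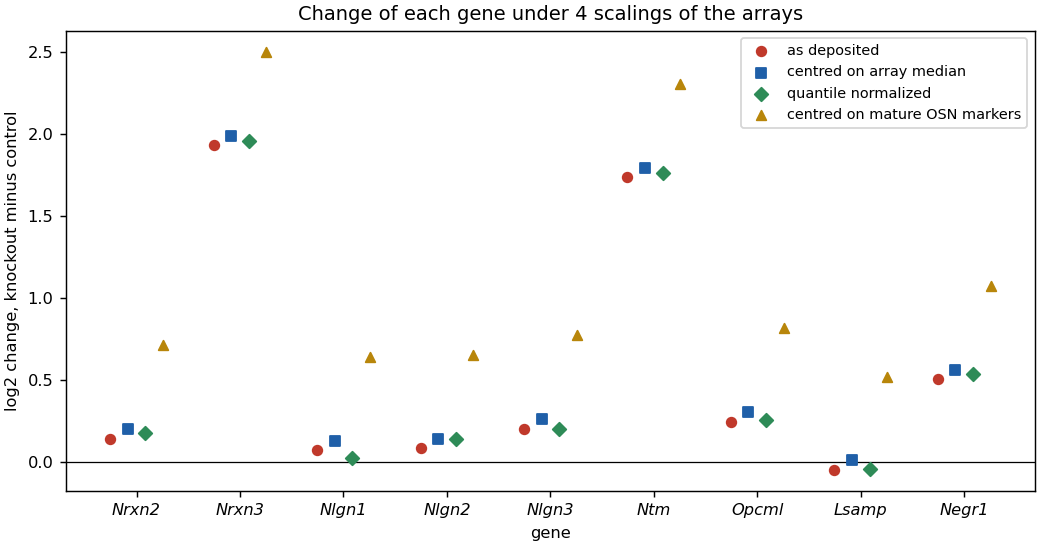
Log2 change (knockout minus control, y axis) of the 9 genes (x axis) with the values as deposited (circles), after centring each array on its median (squares), after quantile normalization (diamonds) and after centring on the mature OSN markers (triangles). Nrxn3 and Ntm stay the highest under all 4 scalings, and Lsamp crosses 0, from -0.05 as deposited to 0.01 after centring on the median.

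In the wider adhesion network more genes were called lower than higher with the values as deposited. Changes below 0 were seen for 29 of 101 genes, near the share over all tested clusters (7816 of 23410). Of 108 genes listed as relatives, partners and scaffolds of these proteins or as other adhesion families, 101 were measured, 13 were called lower and 4 higher (16.8% against the 8.39% of all tested clusters). Without the odorant and trace amine receptor genes (Olfr and Taar), 980 of 20741 single-gene clusters were called (4.72%), 499 lower and 481 higher. The median change of the 101 adhesion genes was 0.06, near the 0.05 of all tested clusters. The split of their calls depended on the scaling, as 9 of these adhesion genes were called lower and 10 higher once each array was centred on its median.

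Of 28 measured extracellular partners of neurexins, 2 were called lower and 0 higher. That is 7.14%, against 8.39% of all tested clusters and 4.72% of the single-gene clusters other than Olfr and Taar. At an unadjusted limma p under 0.05, 3 of the 28 were higher and 2 lower, and the median change was 0.04. Nxph3, a neurexophilin that binds the ectodomain of neurexins, was at 10.20, 10.08, 9.56 and 10.00 in controls and 9.17, 9.17, 9.11 and 9.14 in knockouts. The knockouts were nearly equal and all lay below the controls. Nxph3 fell by 0.81 ± 0.12, which is 1.76 times lower (adjusted p = 0.00137). Tafa4, a small secreted protein of a family that binds neurexins, fell by 0.43 ± 0.10 (adjusted p = 0.0185), a call lost without control replicate 1, 2 or 4 or knockout replicate 1 or 4 (adjusted p = 0.0511 to 0.0656) and by the methods' t-test after adjustment (0.0707). With arrays centred on the mature OSN markers, the change of Nxph3 was -0.25 and no longer called (adjusted p = 0.0664), and that of Tafa4 turned to 0.14.

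Among 19 measured inhibitory ligands and scaffolds, 3 were called lower and 0 higher (15.8%, against 8.39% of all tested clusters). At an unadjusted limma p under 0.05, 3 were higher and 3 lower, and the median change was 0.05. Apba1 (Mint1), an adaptor that binds the cytoplasmic tail of neurexins, was at 10.65, 10.61, 10.64 and 10.65 in controls and 9.84, 9.94, 9.65 and 9.92 in knockouts. It fell by 0.80 ± 0.07, which is 1.74 times lower (adjusted p = 4.56e-05). Magi1, a membrane-associated scaffold, fell by 0.53 ± 0.05 (adjusted p = 7.18e-05), and Lhfpl4, which links Nlgn2 to GABA receptors, by 0.28 ± 0.05 (adjusted p = 0.00821). When centred on the mature OSN markers, Apba1 was still lower (-0.23), while Magi1 (0.04) and Lhfpl4 (0.29) turned sign. Mdga2, which binds neuroligins and blocks neurexin from them, was picked out after its values were seen. It was at 8.53, 8.54, 8.68 and 8.75 in controls and 9.96, 9.04, 8.87 and 9.30 in knockouts, so the groups did not overlap but knockout replicate 1 stood high. Its change of 0.67 ± 0.20 was not called (adjusted p = 0.0793), but it was called without knockout replicate 1 (0.45, adjusted p = 0.0428) or without knockout replicate 3 (0.81, adjusted p = 0.0301).

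Other trans-synaptic adhesion genes changed in both directions. Of 32 measured, 5 were called lower and 2 higher (21.9%, against 8.39% of all tested clusters), with a median of 0.09. Lrrc4, a postsynaptic partner of a netrin G protein, was at 6.96, 7.18, 6.86 and 7.13 in controls and 7.66, 7.72, 7.56 and 7.62 in knockouts and rose by 0.61 ± 0.08, or 1.52-fold (adjusted p = 0.000727). Tenm2, a teneurin, fell by 0.37 ± 0.06 (adjusted p = 0.00164), and Adgrl3, a latrophilin receptor that binds teneurins, by 0.30 ± 0.06 (adjusted p = 0.00955). Both turned sign with centring on the mature OSN markers (0.20 and 0.26). The remaining called genes of this list were Ptprs, Cadm3 and Tenm4, lower, and Lrrc4c, higher.

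Contactins, which are IgLON-like in their lipid anchor, and their associated proteins had 1 gene called lower and 1 higher of 13. That is 15.4%, against 8.39% of all tested clusters. Cntn3 was at 6.36, 6.34, 6.24 and 6.61 in controls and 7.21, 6.94, 6.91 and 7.12 in knockouts and rose by 0.66 ± 0.10, or 1.58-fold (adjusted p = 0.00145), its controls lying below the lower quartile of every array. Cntnap4, a neurexin-like protein, fell by 0.51 ± 0.13 (adjusted p = 0.0349), a call lost without control replicate 4 or any 1 knockout (adjusted p = 0.0600 to 0.0961). The Cntnap4 call was also lost with arrays centred on their median (-0.45, adjusted p = 0.0579), with title series as a block (0.0529), over all clusters (0.0876) and by the methods' t-test after adjustment (0.128). With centring on the mature OSN markers its change was 0.06. Of 8 L1 and NCAM family genes, 2 were called lower and 0 higher (25%, against 8.39% of all tested clusters). At an unadjusted limma p under 0.05, 1 was higher and 2 lower. L1cam fell by 0.25 ± 0.06 (adjusted p = 0.0186) and Ncam1 by 0.22 ± 0.05 (adjusted p = 0.0303), but with that centring they stood at 0.32 and 0.35. The L1cam call was lost without control replicate 1 or 2 or knockout replicate 2 or 3 (adjusted p = 0.0560 to 0.0569), and the Ncam1 call without control replicate 1, 2 or 3 or knockout replicate 1, 2 or 4 (adjusted p = 0.0713 to 0.0969), with arrays centred on their median (-0.16, adjusted p = 0.117) and over all clusters (0.0575).

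**Figure D4:**
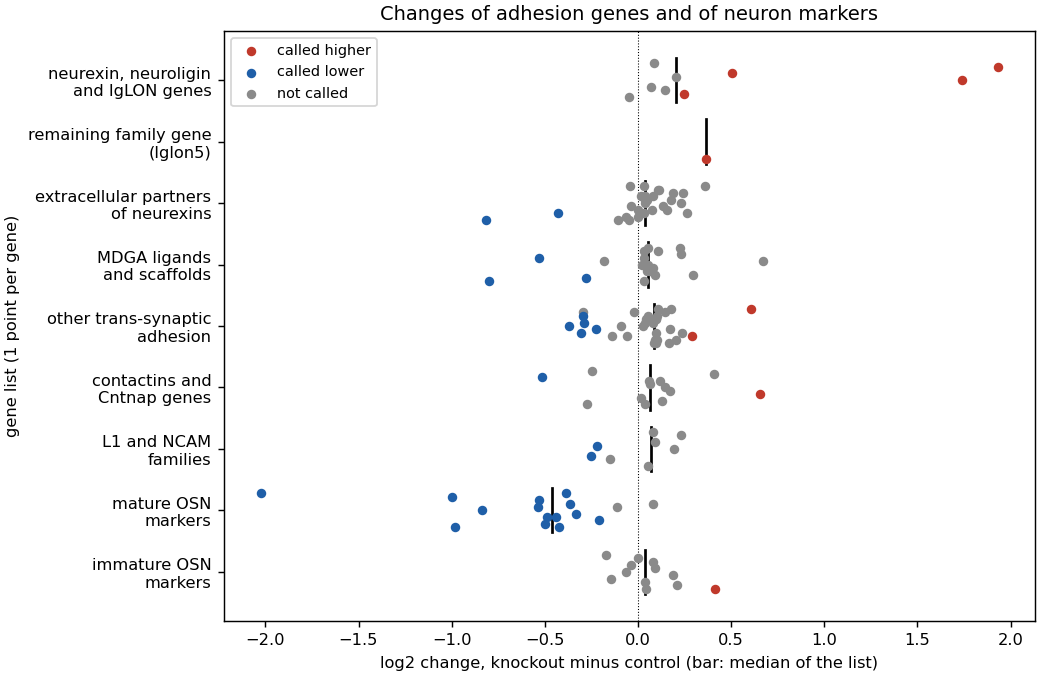
Log2 change (knockout minus control, x axis) of each measured gene in the adhesion gene lists and in the mature and immature OSN marker lists (y axis), coloured by call (red higher, blue lower, grey not called), with the list median as a bar. Nrxn3 and Ntm lie to the right of every other adhesion gene plotted, while the mature OSN markers have a median of -0.46.

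The position of these genes on the chromosomes was taken from RefSeq gene order, without coordinates. Ntm and Opcml are next to each other among the measured coding genes of chromosome 9, yet their changes were 1.74 and 0.25. Beyond them, Spata19 (0.18, adjusted p = 0.258) and Snx19 (-0.02, adjusted p = 0.913) were not called. Nrxn3, on chromosome 12, is followed by Dio2 (-0.08, adjusted p = 0.676), Cep128 (-0.07, adjusted p = 0.787) and then Tshr. Tshr, the thyrotropin receptor, rose by 2.54 ± 0.10 (adjusted p = 7.81e-07). On the other side of Nrxn3, Adck1 had a change of 0.12 (adjusted p = 0.477). Negr1, on chromosome 3, lies between Lrriq3 (0.02, adjusted p = 0.948) and Zranb2 (0.17, adjusted p = 0.505), neither called. Lsamp, on chromosome 16, has as its neighbour Gap43, a growth gene of immature OSNs, whose change was 0.00 ± 0.08 (adjusted p = 0.997).

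For each of the 4 genes called higher, the 3 closest profiles among 21780 other single-gene clusters were found by the root mean square (RMS) difference over the 8 arrays, after each profile was centred on its mean. Because the difference between the groups is part of the profile, clusters with a similar change come first. Nrxn3 was closest to Gucy1a2, a guanylyl cyclase subunit (RMS difference 0.11), Capn8, a calpain protease (0.13), and Nmur1, the neuromedin U receptor (0.18). These rose by 2.06, 1.86 and 2.07. Ntm was closest to Cd69, a membrane lectin (0.15), Pde2a, a phosphodiesterase (0.18), and Pde1b, another phosphodiesterase (0.19), which rose by 1.60, 1.60 and 1.59. Cd69 shared the low value of knockout replicate 3, at 6.65 against 7.15 to 7.64 in the other knockouts, and Pde2a had its lowest knockout value there too (10.17).

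Negr1 was closest to Rims4, a presynaptic active zone protein (0.07), Dusp15, a phosphatase (0.07), and Coro6, a coronin (0.08), with changes of 0.40, 0.48 and 0.47. The Rims4 call (adjusted p = 0.0414) was lost without control replicate 1, 2 or 3 or knockout replicate 2, 3 or 4 (adjusted p = 0.0849 to 0.130), over all clusters (0.0971) and by the methods' t-test after adjustment (0.122). Opcml was closest to Tmem170b (0.03), Svip (0.04) and Ksr1 (0.04), with changes of 0.23 (adjusted p = 0.0535), 0.25 (adjusted p = 0.0417) and 0.21 (adjusted p = 0.0816). The Svip call was lost without any 1 mouse other than control replicate 4 (adjusted p = 0.0641 to 0.116) and over all clusters (0.0852).

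**Figure D5:**
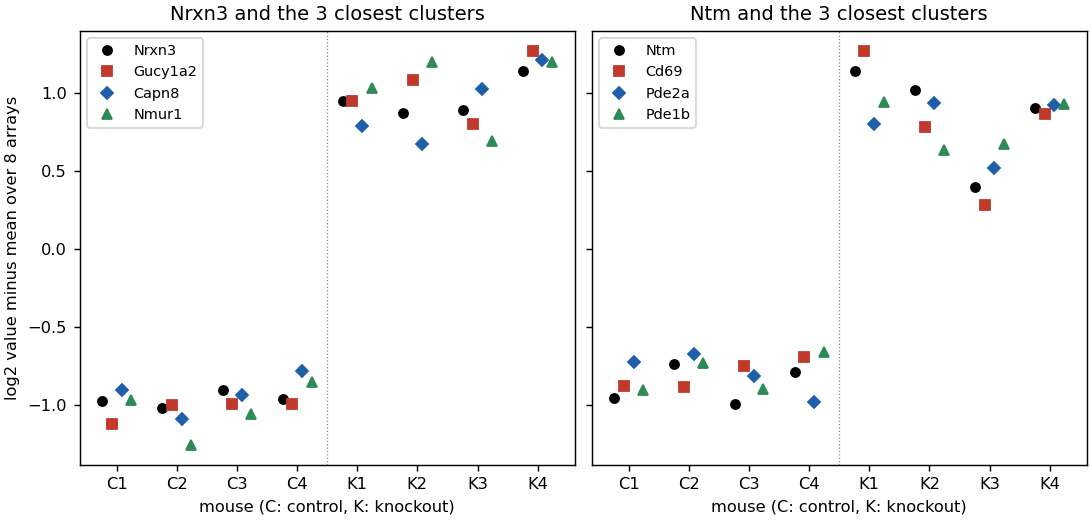
Log2 value minus its mean over the 8 arrays (y axis) in each control (C1 to C4) and knockout (K1 to K4, x axis) for Nrxn3 with its 3 closest clusters (left) and Ntm with its 3 closest clusters (right), points of a mouse being offset sideways. All clusters shown lie below 0 in controls and above 0 in knockouts, and Ntm and Cd69 are lowest among knockouts in K3.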

How the data were processed

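Olfactory mucosa of 8 mice was measured on 1 array each. Per the labels the authors ran Affymetrix Expression Console and deposited log2 values, 1 per transcript cluster and array, a cluster combining all exons of a gene. The program version, background correction and summarisation are unstated in the labels and methods. The table spans 2.35 to 14.6 and was analysed unchanged. Precision is set by the number of arrays.

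Of 35557 clusters, 21789 had 1 symbol (21698 updated through Entrez IDs with RefSeq of GRCm38.p6), 1621 several and 12147 none. Knockouts and controls were compared over the 23410 named clusters by the moderated test of limma 3.58.1 (lmFit, eBayes; R 4.3.3) without covariates, and p-values were adjusted after Benjamini and Hochberg over all of them. A cluster was called at an adjusted p under 0.05. The ± after a change is its standard error. The script was tested on simulated data. Groups came from the phenotype label; replicate numbers only name mice. Knockouts and controls came from shared litters, but the labels do not tie mice to litters. Title series hold 2 controls and 2 knockouts (5), or 1 of each (7 and 9).

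The members and lists were chosen with earlier results of these data known. Named are the 9 genes, Lhx2, Omp, up to 3 called genes with the smallest p per adhesion list, and the 3 closest profiles of each called member; Mdga2, the chromosomal neighbours, Tubb3, Ptprs, Cadm3, Tenm4 and Lrrc4c were added after their values were seen. Alternatives were 3 scalings, title series as a block, array weights, a trended robust variance, a filter keeping clusters above the array median in at least 4 arrays, all clusters, the methods' t-test with Benjamini-Hochberg adjustment, and leaving out each mouse. The rescaling of the study to a long list of mature OSN mRNAs was not used here. Promoter windows were read from a RefSeq table. Figures were drawn with matplotlib 3.10.9.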

Additional observations from a re-analysis of the deposited data

Results flagged for a closer look

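Of 76 groups of 4 values checked for a mouse far from the rest, 2 were singled out, and about 1 in 20 such groups is singled out where nothing is unusual. Tenm2 was at 11.94 in control replicate 3 and at 12.04 in the nearest other control, a gap of 0.963 of the range of the group. Gucy1a2, the profile closest to Nrxn3, was at 7.13 in control replicate 1, the control without Cre, and at 7.26 in the nearest other control, a gap of 0.974 of the range. None of the 9 adhesion genes was singled out in either group.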

How the results depend on the processing

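Over 17 alternatives, the number of the 9 genes called higher was 3 to 5 (4 as reported) and the number called lower was 0, except that centring on the mature OSN markers called 9 higher. Leaving out 1 mouse gave 3 or 4. Nrxn3 and Negr1 were called in all 17 and Ntm in the 16 that tested it. Nrxn3 passed the filter on dim clusters only through its knockouts (9.12 to 9.40). Its controls (7.23 to 7.35) lay below every array median (8.44 to 8.57), so its call under that filter adds no support. The filter on dim clusters removed Ntm, Opcml, Lsamp, Nlgn1 and Nlgn2, and no gene of the 9 had another cluster, so that alternative was not run. Opcml was also not called with a trended robust variance (adjusted p = 0.0724) or over all clusters (adjusted p = 0.0729).

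Over all tested clusters, 1473 were called lower and 492 higher as deposited. After centring on the array median 1342 were lower and 1028 higher, after quantile normalization 1478 and 712, with title series as a block 1715 and 975, with array weights 1728 and 1086, and after centring on the mature OSN markers 797 and 21772. The filter on dim clusters gave 891 lower. Leaving out 1 mouse gave 1302 to 1421 lower and 304 to 563 higher; the fewest higher came without control replicate 1 (304) and knockout replicate 4 (318).

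Of the adhesion lists, 13 genes were called lower and 4 higher as deposited. Higher calls were 10 after centring on the array median, 9 with title series as a block, 10 with array weights, 1 after the filter on dim clusters, 2 over all clusters and 2 by the methods' t-test. Centring on the mature OSN markers gave 1 lower and 95 higher. Leaving out 1 mouse gave 8 to 10 lower, with 8 without control replicate 1, knockout replicate 2 or knockout replicate 4, and 2 to 5 higher, with 2 without knockout replicate 2. Relative to the mature OSN markers the sign turned for Lhx2 (0.32), Lsamp (0.52), Tafa4 (0.14), Magi1 (0.036), Lhfpl4 (0.29), Tenm2 (0.20), Adgrl3 (0.26), Cntnap4 (0.055), L1cam (0.32) and Ncam1 (0.35), as that scaling adds 0.57, the mean decrease of 16 chosen markers (Cnga4 among them at -2.02), to every change, and a smaller shift would turn fewer. Magi1 (-0.53) and Cntnap4 (-0.51) lie below the median of the markers (-0.46). Lsamp also turned after centring on the array median (0.011) and without knockout replicate 4 (0.00122), the other mice left out giving -0.088 at the lowest.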
